A study of Mus musculus with 8 samples.

Results

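Axon guidance ligands and receptors are the secreted and membrane proteins through which growing axons and dendrites sense their surroundings. Here they are the semaphorins with their plexin and neuropilin receptors, the ephrins with their Eph receptors, netrin with the receptors of the Dcc and Unc5 families, and the Robo receptors of Slit. They were taken from the deposited signal table by gene symbol, each gene being represented by its probe set with the highest mean signal. A probe set is a group of short oligonucleotides on the array that together measure 1 transcript. This gave 46 of the 8251 genes with a single symbol: 16 semaphorins, 5 plexins, 1 neuropilin, 8 ephrins, 9 Eph receptors, 2 Robo receptors, 4 netrin-family genes and Unc50. Unc50 was caught only because its symbol begins like those of the Unc5 receptors; it encodes a Golgi and inner nuclear membrane protein and is kept in the counts but in no family. No Slit gene was found by the rule.

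The 8 arrays were from visual cortex of wild-type C57Bl6 mice at postnatal day 24, 4 days after 1 eye was removed at postnatal day 20. Most optic nerve fibres of the mouse cross the midline, so the 4 deprived samples were from the hemisphere opposite the removed eye and the 4 non-deprived samples from the hemisphere on its own side. All mice had been operated on, so each difference is relative to the other hemisphere of enucleated mice. Of 4 mice named in the labels, it is not clear whether an array held 1 animal or a pool. The p-values therefore set a difference only against the scatter of these samples, part of which may be technical. How far the differences carry over to other mice is not known.

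Semaphorins act mostly as repellents and signal through plexins, the secreted class 3 members mostly together with neuropilins. Ephrins are bound to the membrane and signal to Eph receptor tyrosine kinases on the neighbouring cell, and back into their own cell. Graded ephrin-A and EphA proteins order the retinal projection to the thalamus and midbrain and the thalamic projection to visual cortex. Netrin attracts axons through Dcc and neogenin (Neo1), repels them through Unc5 receptors, and neogenin also binds repulsive guidance molecules. In cortex past the phase of axon growth, many of these proteins are found at synapses, where they take part in spine remodelling.

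The values are MAS5 signals, a linear measure of brightness per probe set. Arrays had median signals of 183 to 209, and any pair of them correlated at 0.926 to 0.973 in log2 values. The median signal averaged 189 ± 6.47 over the non-deprived and 200 ± 7.86 over the deprived arrays (SD, n = 4 each, exact permutation p = 0.114). It was higher on the deprived array in 4 of 4 same-numbered pairs. The 10th percentile of all signals averaged 13.5 ± 0.718 over the non-deprived and 17.2 ± 2.68 over the deprived arrays (SD, n = 4 each, exact permutation p = 0.0286, the smallest the design allows), so the dimmest probe sets read higher on deprived arrays. The 3' to 5' ratio of actin, a measure of RNA integrity, was 1.39 ± 0.179 and 1.64 ± 0.239 (SD, n = 4 each, exact permutation p = 0.171), and that of Gapdh 0.898 ± 0.0543 and 0.842 ± 0.0345 (exact permutation p = 0.143). By same-numbered pairs, which the permutation test does not use, the deprived array had the higher actin ratio in 3 of 4. It had the lower Gapdh ratio in 4 of 4. Of 17 cortical neuron markers fixed for this check, 10 were measured, and all 10 were over the filter described next. Their summed signal was 13461 to 18094 over the non-deprived and 13509.8 to 16183 over the deprived arrays, higher in 1 of 4 pairs. Their median log2 difference, deprived minus non-deprived, was -0.040, where that of all probe sets over the filter was 0.024.

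A filter kept the probe sets above the 40th percentile of mean log2 level, a signal of about 110.0. It left 33 of the 46 members and 7453 of 12422 probe sets for the test. Differences are deprived minus non-deprived, as log2 of signal plus a pseudocount of 15.3, which understates the change of dim genes. In limma with Benjamini-Hochberg adjustment over all 7453 probe sets, 0 members were called higher and 0 lower at an adjusted p under 0.05, against 0.0% of all probe sets. With same-numbered hemispheres fitted as pairs (the replicate block) the counts were also 0 and 0, against 0.0%. No member was therefore shown to differ between hemispheres, and what follows gives the size and spread of each difference.

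At an unadjusted p under 0.05, 1 member was higher, Neo1, where 1.45% of all probe sets were, and 1 was lower, Epha8, where 1.22% were. With the replicate block 2 were higher, Neo1 and Efnb2, where 3.38% of all probe sets were, and 1 was lower, Epha8, where 3.65% were. The deprived arrays lay entirely above the non-deprived ones for 1 of the 33 members, Neo1, where 1.23% of all probe sets did, and entirely below for 0 members, where 0.805% did. Of 33 members, 1 gene is 3.03% and 2 are 6.06%, and counts this small are no result about the members as a set. Neo1, which is in each of these counts of higher members, was known to be higher in these data before members and tests were chosen. Of the 33 members, 22 lay above 0 (66.7%) and 11 below (33.3%), with a median of 0.065, where 54.9% of all probe sets lay above 0 and 45.1% below, with a median of 0.024.

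**Figure D1:**
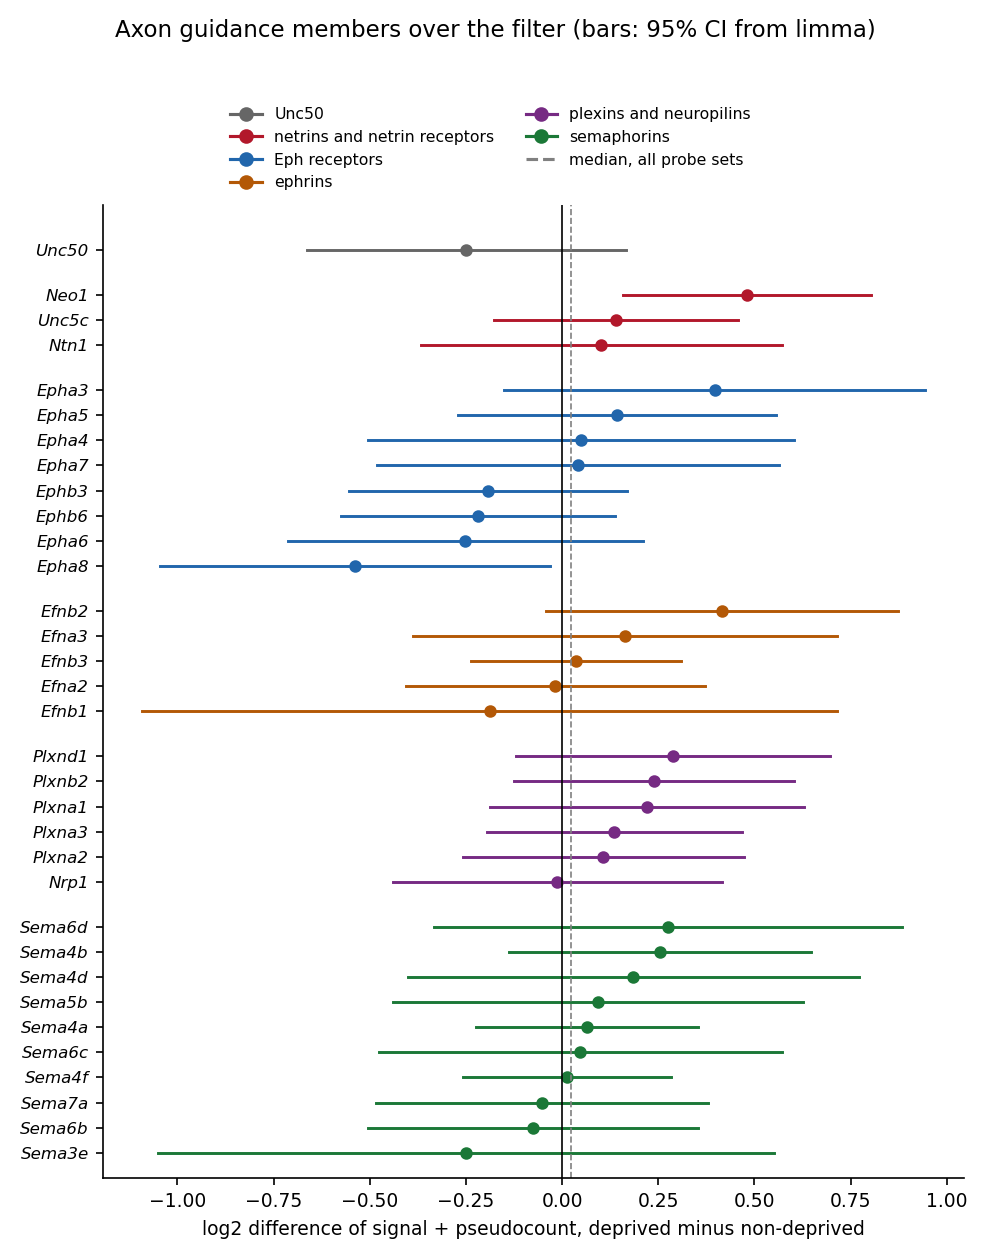
The horizontal axis is the log2 difference of signal plus pseudocount, deprived minus non-deprived, for the 33 members over the filter, grouped by family; points are estimates, bars are 95% confidence intervals from limma and the dashed line is the median of all probe sets. The bars are from the fit without the replicate block. Those of Neo1 (0.16 to 0.80) and Epha8 (-1.05 to -0.032) leave out 0, and those of the other 31 members include it. With the block the interval of Efnb2 (0.16 to 0.67) also leaves out 0.

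In the netrin system, neogenin had the smallest p-value. A higher neogenin signal in these data was known before members and tests were chosen, so its p-values are no independent support. Neo1, a receptor for netrins and repulsive guidance molecules, had signals of 319, 395, 359 and 329 in non-deprived replicates 1 to 4 and 443, 483, 506 and 547 in deprived replicates 1 to 4. The lowest deprived array exceeded the highest non-deprived one, so the groups did not overlap. The means were 350.2 ± 34.5 over the 4 non-deprived arrays and 495 ± 43.6 over the 4 deprived ones (SD), a fold of 1.4 with a 95% interval of 1.12 to 1.75. The log2 difference was 0.48 ± 0.15 (SE), higher in 4 of 4 same-numbered pairs by 0.28 to 0.71, with an unadjusted p of 0.00695 and an adjusted p of 0.995 in limma. With the replicate block these were 0.00562 and 0.676. Over all 19 alternative settings the difference was 0.43 to 0.57, with unadjusted p from 0.00165 to 0.0216 and adjusted p from 0.361 to 1, so the direction held in each and the call over all probe sets was made in none. They include the fits with the actin and the Gapdh ratio as a covariate, which gave 0.54 and 0.57.

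The other netrin receptors gave smaller differences or were too dim to test. Unc5c, a repulsive netrin receptor, had signals of 417, 421, 456 and 467 in non-deprived replicates 1 to 4 and 436, 469.7, 474 and 575 in deprived replicates 1 to 4. It was higher in 4 of 4 pairs, but by only 0.055 to 0.29, and the groups overlapped, with deprived replicate 4 standing above all others. Its log2 difference was 0.14 ± 0.15 (SE) with a 95% interval of -0.18 to 0.46 (limma unadjusted p = 0.351). Without deprived replicate 4 it was 0.063, and with the actin ratio as a covariate 0.25. Dcc, the attractive netrin receptor closest in structure to neogenin, was under the filter, with signals of 54, 28.3, 23.9 and 26.5 in non-deprived replicates 1 to 4 and 60.6, 25.6, 18.8 and 65.5 in deprived replicates 1 to 4. Deprived replicates 1 and 4 and non-deprived replicate 1 gave its highest signals, so no side was separated.

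Netrin itself did not separate the hemispheres. Ntn1, the secreted ligand, had signals of 333, 241, 345 and 278 in non-deprived replicates 1 to 4 and 256, 253, 350.1 and 456 in deprived replicates 1 to 4. Its log2 difference was 0.10 ± 0.21 (SE) and turned to -0.063 without deprived replicate 4, the array with its highest signal. The 3 netrin-family members over the filter all lay above 0, with a median of 0.14, and Neo1 was the only one of them with an interval clear of 0. Deprived replicate 4 was the highest array of all 8 for Neo1, Unc5c and Ntn1, and also the array with the highest 10th percentile of signal (21.1), whose part in these values was not tested. Without that array the Neo1 difference was 0.43 (unadjusted p = 0.0204 in limma).

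**Figure D2:**
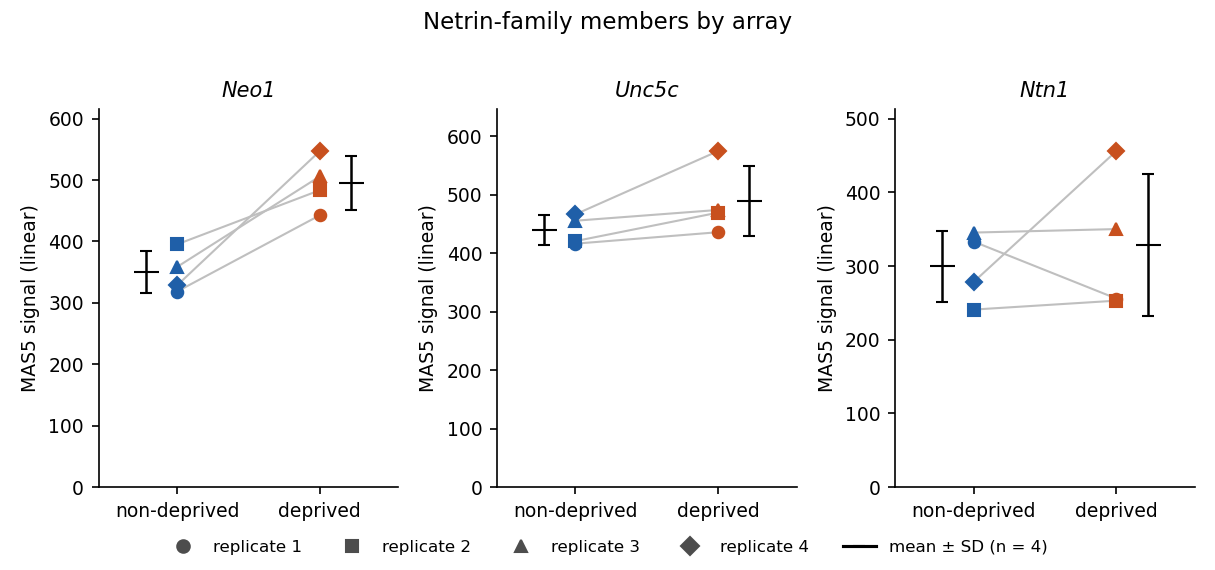
MAS5 signal on a linear axis from 0 for Neo1, Unc5c and Ntn1, with 1 symbol shape per replicate number, grey lines joining same-numbered samples and black bars giving the mean ± SD of 4 arrays. All 4 deprived values of Neo1 (443 to 547) lie above all 4 non-deprived values (319 to 395), while those of Unc5c and Ntn1 overlap.

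Among the ephrins, the ligands of the Eph receptors, ephrin-B2 had the largest difference. Efnb2 encodes a transmembrane ephrin that also marks arterial endothelium. Its signals were 892, 1441, 945 and 735 in non-deprived replicates 1 to 4 and 1232, 1581, 1456 and 1012 in deprived replicates 1 to 4. Arrays with the same number stood together, both replicates 2 being the highest of their group and both replicates 4 the lowest, and the groups overlapped. The means were 1003 ± 305 over the 4 non-deprived arrays and 1320.1 ± 251 over the 4 deprived ones (SD). The log2 difference was 0.42 ± 0.21 (SE), higher in 4 of 4 pairs by 0.13 to 0.61. Its limma unadjusted p was 0.0711 without and 0.00508 with the replicate block, and the adjusted p was 0.995 and 0.67. When the fit took the actin ratio as a covariate, the difference was 0.19 (unadjusted p = 0.412 in limma), and with the Gapdh ratio 0.51.

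The remaining ephrins lay near 0 or varied widely. Efnb3, a transmembrane ephrin of neurons, was steady at 1253 to 1550.3 over the 8 arrays, with a log2 difference of 0.036 ± 0.13 (SE) and an interval of -0.24 to 0.31. Efna3, a GPI-anchored ephrin, ranged over 1193 to 2649 and gave 0.16 ± 0.25 (SE), which turned to -0.028 without non-deprived replicate 1 and -0.079 with the Gapdh ratio as a covariate. Efnb1, a transmembrane ephrin, had signals of 106, 219, 229.6 and 194 in non-deprived replicates 1 to 4 and 50.1, 259.7, 191 and 218 in deprived replicates 1 to 4. Both replicates 1 were the lowest of their group, and the difference of -0.19 ± 0.41 (SE) became 0.28 without deprived replicate 1. Efna2 gave -0.017. Of 5 ephrins over the filter, 3 lay above 0 and 2 below, with a median of 0.036 that was -0.079 with the Gapdh ratio as a covariate and 0.28 without deprived replicate 1. Efna1, Efna4 and Efna5, all GPI-anchored, were under the filter. Efna5, which helps order visual maps, had signals of 6.2 to 8.8 in non-deprived and 9.8 to 23.9 in deprived arrays, so the groups were separate, but on average below the pseudocount, where the 10th percentile of signal was itself higher on deprived arrays.

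Eph receptors showed no common direction. Of 8 over the filter, 4 lay above 0 and 4 below, with a median of -0.075, and that median was -0.24 when the actin ratio entered the fit, 0.041 with no filter and 0.045 when probe sets of a gene were averaged. Epha8, a receptor for ephrin-A ligands, had the lowest difference of the 33 members over the filter. Its signals were 260.4, 230.0, 224 and 275 in non-deprived replicates 1 to 4 and 248, 176, 151 and 111 in deprived replicates 1 to 4. Deprived replicate 1 lay among the non-deprived arrays and the other 3 deprived arrays below them, so the groups overlapped. The means were 247 ± 24.1 over the 4 non-deprived arrays and 171 ± 57.9 over the 4 deprived ones (SD), a fold of 0.688 with a 95% interval of 0.484 to 0.978.

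The log2 difference of Epha8 was -0.54 ± 0.23 (SE), lower in 4 of 4 pairs, with pair differences of -1.20 to -0.064. Its limma unadjusted p was 0.0391 and its adjusted p 0.995, or 0.0331 and 0.703 with the replicate block. The pair numbered 4 gave the largest of these differences, and without deprived replicate 4 the value was -0.37 (unadjusted p = 0.112 in limma). Without deprived replicate 1 it was -0.72 (unadjusted p = 0.00704).

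Epha3, an ephrin-A receptor just over the filter, leaned the other way. Its signals were 86.5, 80.9, 128 and 102 in non-deprived replicates 1 to 4 and 133, 157, 94.5 and 161 in deprived replicates 1 to 4. It was higher in 3 of 4 pairs, with pair 3 reversed, and its log2 difference was 0.40 ± 0.25 (SE, limma unadjusted p = 0.14). Epha4, which binds ephrins of both classes, ranged over 485 to 1025 with overlapping groups and a difference of 0.049 ± 0.25 (SE). This became -0.13 when non-deprived replicate 2 was left out, -0.10 when deprived replicate 3 was, and -0.13 when the Gapdh ratio entered the fit, so it has no settled sign. Epha5, Epha6 and Epha7 gave 0.14, -0.25 and 0.041, and Epha2 was under the filter.

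Both EphB receptors over the filter lay below 0. Ephb6, which lacks kinase activity, had signals of 2500.1, 2327, 1980.1 and 2378 in non-deprived replicates 1 to 4 and 2574, 1553, 2074 and 1796 in deprived replicates 1 to 4. Its difference was -0.22 ± 0.16 (SE), lower in 2 of 4 pairs (limma unadjusted p = 0.206). Dropping deprived replicate 2 gave -0.11, dropping deprived replicate 1 gave -0.35, and the Gapdh ratio as a covariate gave -0.12. Another probe set of Ephb6, also over the filter, pointed the opposite way, with signals of 278, 236, 462 and 285 in non-deprived replicates 1 to 4 and 303, 383, 392 and 660.3 in deprived replicates 1 to 4 and a log2 difference of 0.43, so the gene's direction depends on the probe set. Ephb3, a kinase-active receptor for B ephrins, gave -0.19 ± 0.17 (SE).

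**Figure D3:**
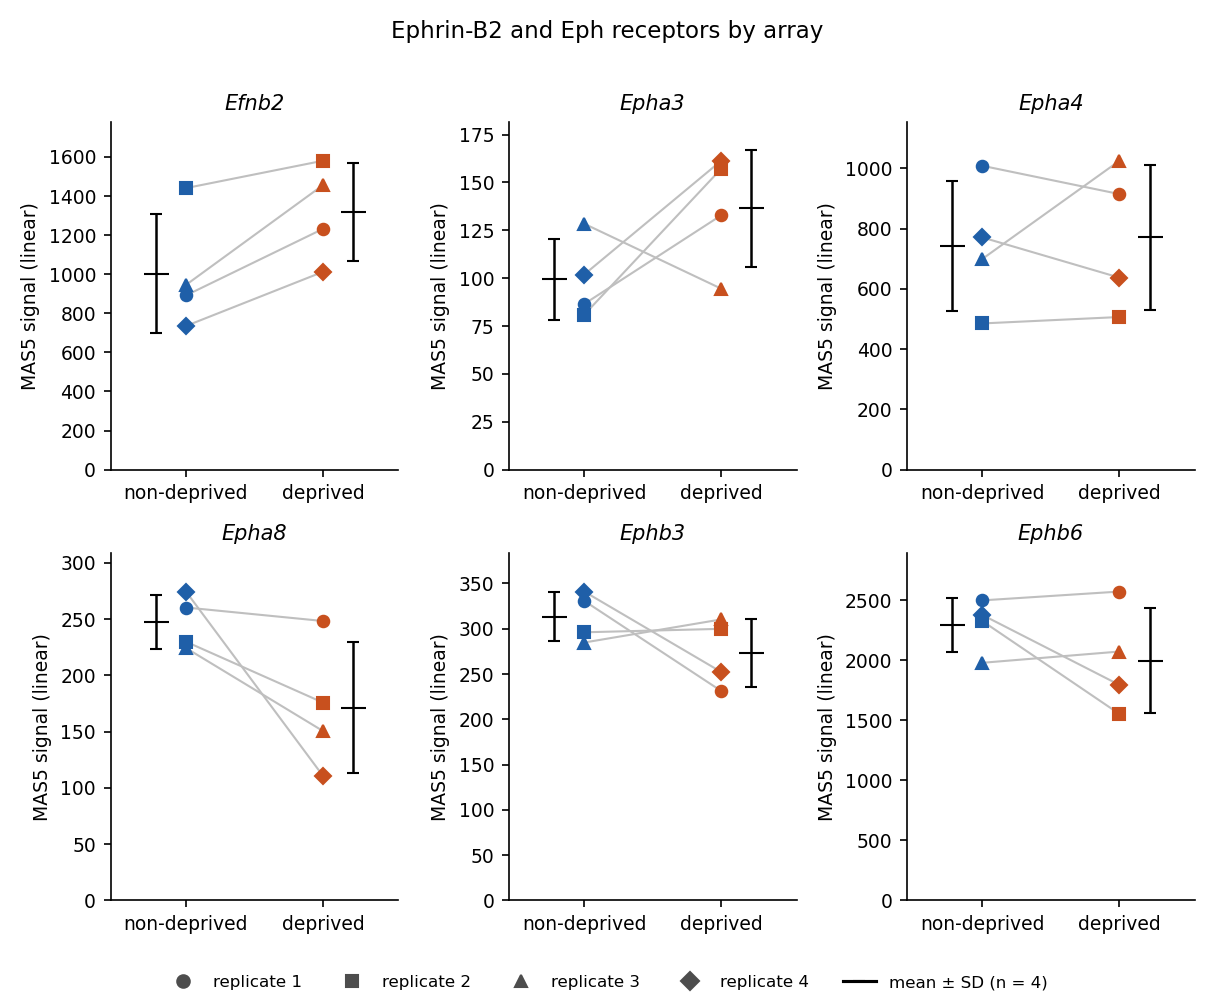
MAS5 signal on a linear axis from 0 for ephrin-B2 (Efnb2) and 5 Eph receptors, with 1 symbol shape per replicate number, grey lines joining same-numbered samples and black bars giving the mean ± SD of 4 arrays. Efnb2 goes up and Epha8 goes down in all 4 pairs, Epha3 goes up in 3, and Epha4, Ephb3 and Ephb6 go both ways.

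Semaphorins were spread around 0. Of 10 over the filter, 7 lay above 0 and 3 below, with a median of 0.056. That median was -0.0039 without deprived replicate 3 and -0.0078 with the Gapdh ratio as a covariate, so its sign is not settled. Sema4b, a transmembrane class 4 member, had signals of 286, 298, 409.8 and 329 in non-deprived replicates 1 to 4 and 348, 458, 457 and 330.1 in deprived replicates 1 to 4. It was higher in 4 of 4 pairs, by only 0.0063 in pair 4, with a log2 difference of 0.25 ± 0.18 (SE, limma unadjusted p = 0.183), and 0.062 with the Gapdh ratio as a covariate. A further probe set of Sema4b over the filter gave 0.24, and a dim one -0.28. Sema6d, a transmembrane ligand of plexin-A1, had signals of 298, 196, 260.2 and 247 in non-deprived replicates 1 to 4 and 309, 284, 533 and 177 in deprived replicates 1 to 4. Deprived replicate 3 stood above the other 7 arrays. The difference of 0.28 ± 0.28 (SE) became 0.014 without it, 0.011 with the actin ratio and -0.036 with the Gapdh ratio as a covariate.

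Sema4d, a class 4 ligand of B plexins expressed by oligodendrocytes, had signals of 333, 447, 284 and 287 in non-deprived replicates 1 to 4 and 264, 669, 294 and 395 in deprived replicates 1 to 4. Deprived replicate 2 was its highest array, and the difference of 0.18 ± 0.27 (SE) became -0.080 without it. The GPI-anchored Sema7a gave -0.053 ± 0.20 (SE) and 0.019 in its 2 probe sets, both with their lowest signal of all 8 arrays in deprived replicate 1. Sema4f, a class 4 semaphorin of the postsynaptic density, was steady at 1175 to 1425, with a difference of 0.013 ± 0.12 (SE) and an interval of -0.26 to 0.28. Sema4a, Sema5b, Sema6b and Sema6c gave 0.065, 0.094, -0.076 and 0.048.

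Class 3, the secreted semaphorins, was the least covered. Only Sema3e of its 5 members was over the filter, with signals of 686, 353, 394 and 286 in non-deprived replicates 1 to 4 and 221, 576, 543 and 189 in deprived replicates 1 to 4. The highest was in non-deprived replicate 1 and the lowest in deprived replicate 4, with the others interleaved, and its log2 difference was -0.25 ± 0.37 (SE). Sema3e binds plexin-D1 without a neuropilin. Sema3a, which repels cortical axons through neuropilin-1, was just under the filter with signals of 191, 98.3, 134 and 125 in non-deprived replicates 1 to 4 and 134, 144, 93.8 and 29.4 in deprived replicates 1 to 4. The lowest of these was in deprived replicate 4 and the highest in non-deprived replicate 1, with the other 6 arrays overlapping. Sema3b, Sema3c and Sema3f were dim.

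All 5 plexins, the signalling receptors of the semaphorins, had differences above 0, from 0.11 to 0.29, but none passed the test and 54.9% of all probe sets lay above 0. Plxnd1, the receptor of Sema3e, which is expressed in vessels and in subsets of neurons, had signals of 1055, 1444, 939.6 and 941 in non-deprived replicates 1 to 4 and 1440.0, 1308, 1622 and 992 in deprived replicates 1 to 4. Non-deprived replicate 2 and deprived replicate 4 crossed the order of the groups, and the log2 difference was 0.29 ± 0.19 (SE, limma unadjusted p = 0.149, or 0.0855 with the replicate block). It was 0.43 when non-deprived replicate 2 was left out, 0.19 when deprived replicate 3 was, and 0.099 when the actin ratio entered the fit.

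Plxnb2, a receptor for class 4 semaphorins, had signals of 472, 629, 399 and 427 in non-deprived replicates 1 to 4 and 550.3, 589, 608 and 506 in deprived replicates 1 to 4. Its log2 difference of 0.24 ± 0.17 (SE) was matched by 0.24 in another probe set over the filter. The first value was 0.10 with the actin ratio and 0.38 with the Gapdh ratio as a covariate. Dropping non-deprived replicate 3 gave 0.16, and dropping non-deprived replicate 2 gave 0.37. The A plexins gave 0.22 ± 0.19 (SE) for Plxna1, 0.11 ± 0.17 (SE) for Plxna2 and 0.14 ± 0.15 (SE) for Plxna3, and all 3 had their highest signal of 8 arrays in deprived replicate 3. The Plxna2 value became -0.031 without that array. That of Plxna1 was 0.14 without it. Leaving non-deprived replicate 3 out gave 0.12 for Plxna1, and leaving non-deprived replicate 2 out gave 0.14. Nrp1, the neuropilin that binds Sema3a, gave -0.012 ± 0.20 (SE) and a lower value of -0.13 in another probe set. The median over the plexins and Nrp1 was 0.18, 0.12 to 0.22 when any 1 array was left out and 0.10 with the actin ratio as a covariate.

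**Figure D4:**
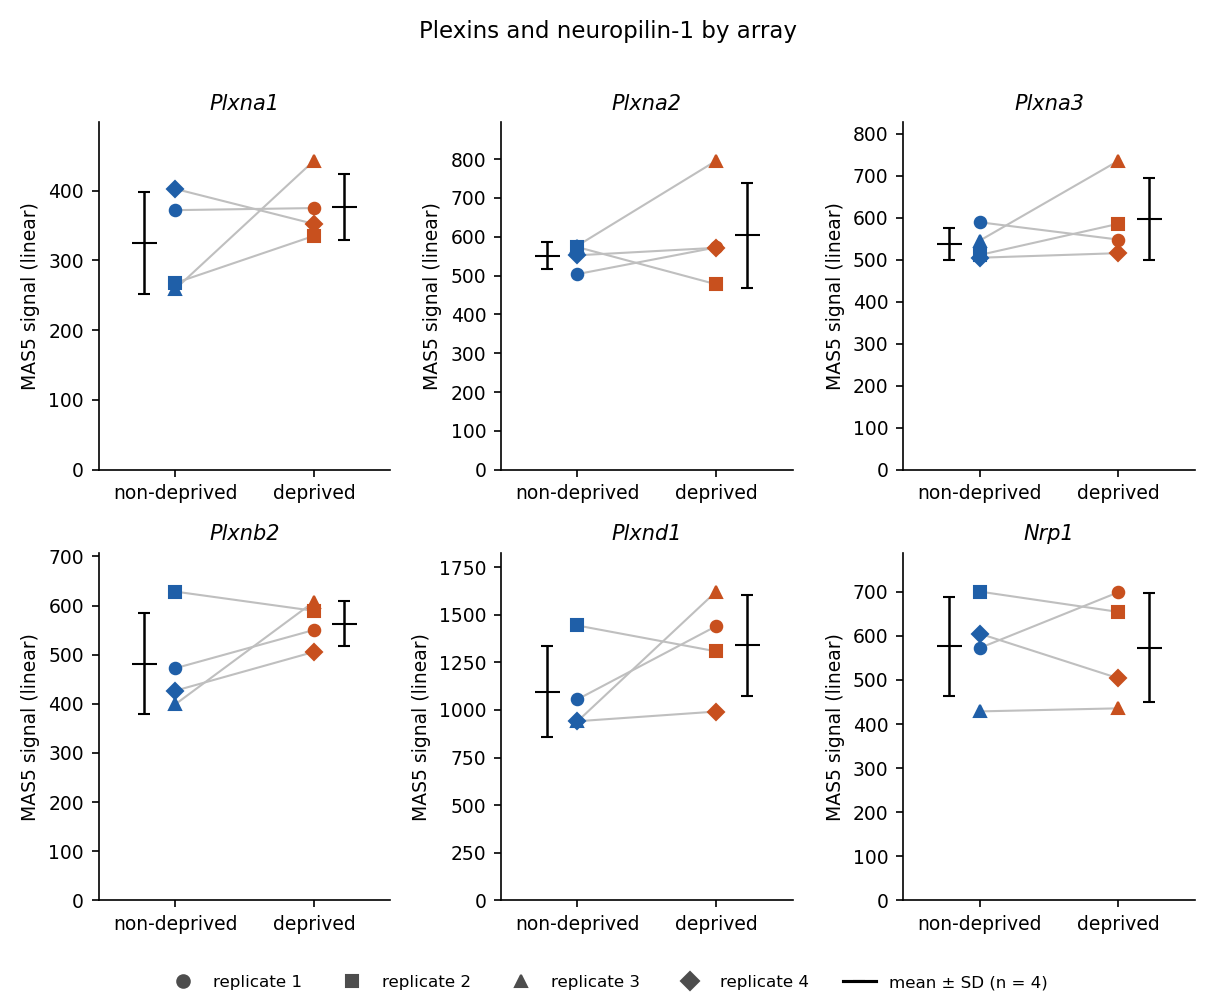
MAS5 signal on a linear axis from 0 for 5 plexins and neuropilin-1 (Nrp1), with 1 symbol shape per replicate number, grey lines joining same-numbered samples and black bars giving the mean ± SD of 4 arrays. Deprived replicate 3 is the highest point for Plxna1, Plxna2, Plxna3 and Plxnd1, and in every panel the groups overlap.

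Both Robo receptors were under the filter. Robo1 had signals of 59 to 245 in non-deprived and 24.9 to 159.5 in deprived arrays and Robo3 of 41.2 to 117 and 65 to 103, ranges that overlap. Unc50, no guidance receptor, had -0.25 ± 0.19 (SE). The 13 members under the filter had mean signals of 10.5 to 121 and single signals of 6.2 to 267, and 9 of them lay above 0. The 10th percentile of signal was higher on deprived arrays, and its part in these signs was not tested. They carry no test here, and a low signal may be a weak probe set as well as a scarce transcript. The members nearest the filter were Sema3a (mean log2 value 6.96) and Epha3 (7.02), either side of 6.97.

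Agreement between pairs and probe sets shows how far single members can be read. Of 33 members, 4 were higher in all 4 pairs (Neo1, Efnb2, Unc5c and Sema4b, 12.1%), where 8.95% of all probe sets were, and 1 was lower in all (Epha8, 3.03%), where 6.92% were. Pairs 2 and 3 had 23 and 22 members higher in the deprived sample and pairs 1 and 4 had 18 and 17, where 54.0% and 56.0% of all probe sets were higher in pairs 2 and 3 and 49.8% and 50.2% in pairs 1 and 4. There were 12 members with more than 1 probe set. For 6 of them a further probe set was over the filter, and it had the same sign for 4 (Efnb3, Nrp1, Plxnb2 and Sema4b) and the opposite sign for Ephb6 and Sema7a. Over all 13 further probe sets, dim ones included, 6 had the same sign and 7 the opposite one, the latter also for Epha4, Epha5, Epha7, Sema3b and a dim probe set of Sema4b. Neo1, Efnb2, Epha8 and Unc5c each had a single probe set, so they have no such check.

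**Figure D5:**
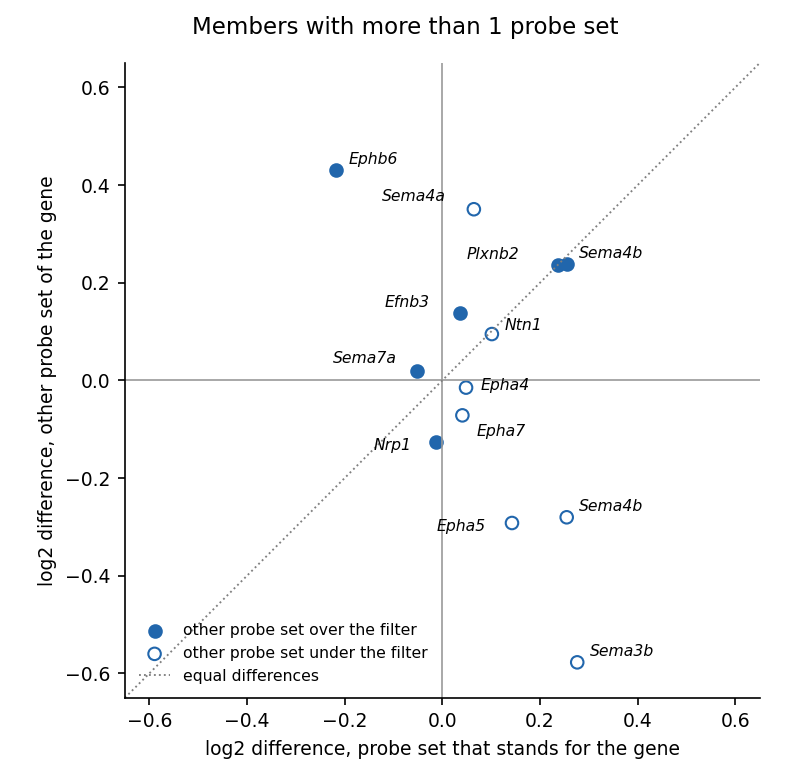
Each point is a further probe set of a member, with the log2 difference (deprived minus non-deprived) of the probe set that stands for the gene on the horizontal axis and that of the further probe set on the vertical axis; filled points are over the filter and open points under it, and the dotted line marks equal values. Plxnb2 (0.24 and 0.24) and a pair of Sema4b (0.25 and 0.24) lie on the line, while 7 points, those of Ephb6 (-0.22 and 0.43), Sema7a, Epha4, Epha5, Epha7, Sema3b and the dim one of Sema4b, lie in the quadrants of opposite sign.

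Downstream of these receptors, 32 of 34 measured signal transducers from a fixed list of 56 genes were over the filter, and 0 passed in either direction, against 0.0% of all probe sets. Of the 32, 19 lay above 0 and 13 below, with a median of 0.044, where 54.9% of all probe sets lay above 0, with a median of 0.024. Pak2, a kinase activated by Rac and Cdc42, had signals of 637, 943, 575 and 630.3 in non-deprived replicates 1 to 4 and 822, 977, 1157 and 789 in deprived replicates 1 to 4. It was higher in 4 of 4 pairs, with a log2 difference of 0.43 ± 0.19 (SE, limma unadjusted p = 0.0394 and adjusted p = 0.995), and non-deprived replicate 2 lay among the deprived arrays. Pak2 was the only 1 of the 32 transducers higher at an unadjusted p under 0.05 in limma, where 1.45% of all probe sets were. Of the 32, 0 were lower, where 1.22% of all probe sets were. A count this small is no result about the list. The GTPase gene Rhoa, through which many repellents act, gave -0.20 ± 0.13 (SE), and Cfl1, the actin-severing cofilin, -0.26 ± 0.17 (SE), each higher in 1 of 4 pairs.

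Of 31 fixed partners and co-receptors, 13 were measured and 10 were over the filter, with 7 above 0, a median of 0.077 and 0 passing. Of all probe sets, 54.9% lay above 0. The smallest p-values were those of Chl1, an adhesion molecule that associates with neuropilin-1 (-0.26 ± 0.21 SE), the chemokine gene Cxcl12 (0.14 ± 0.14 SE) and the adhesion molecule gene Ncam1 (0.13 ± 0.14 SE), and none was under 0.05 unadjusted in limma. The ligands Rgma and Rgmb of neogenin were among the 18 genes of this list that no probe set named as its single symbol, so they have no values here.

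Several members are also expressed outside neurons, and in bulk tissue fewer cells of a type and less RNA per cell cannot be told apart. Of the 15 measured genes of the endothelial, mural and meningeal list, 14 were over the filter, 10 of them above 0, with a median of 0.094. Of all probe sets, 54.9% lay above 0. The summed signal of the list was 6269 to 7784 in non-deprived and 6460.1 to 8415 in deprived arrays, higher in 4 of 4 pairs. Such a sum is weighted towards the brightest gene, here Igf2, which is made by meninges and vessels. Igf2 had means of 1624 ± 349 over the non-deprived and 2176 ± 332 over the deprived arrays (SD, n = 4 each). The sum is therefore no measure of vessel content alone. The log2 difference of Igf2 was 0.43 ± 0.17 (SE), with a limma unadjusted p of 0.0273, or 0.00436 with the replicate block. Cldn5, a tight-junction gene of endothelium, gave -0.30 ± 0.20 (SE) and was lower in 4 of 4 pairs, with a limma unadjusted p of 0.163, or 0.0304 with the block. Of the other endothelial genes of the list, Pecam1, Flt1, Tek, Kdr and Cdh5 gave 0.21, 0.12, 0.10, 0.079 and 0.067. Each was higher in 3 of 4 pairs, while Vwf gave -0.22. The endothelial genes therefore shared no direction. Dcn, a further gene of the list, gave 0.40, with a limma unadjusted p of 0.0536, or 0.0359 with the block. Efnb2 and Plxnd1 are both expressed in endothelium, and the part of vessel or meningeal content in their values was not tested. Summed signals of oligodendrocyte, astrocyte and microglia markers were each higher in 2 of 4 pairs, with medians of -0.046, -0.061 and 0.035. The thalamus list, some of whose genes (Pvalb, Calb2, Rora) are also expressed in cortex, had a median of 0.065 and a summed signal higher in 3 of 4 pairs. The hippocampus list had a median of 0.030, the blood list -0.13 and the striatum list -0.43, each over the 3 genes above the filter. Summed signals take in all measured genes of a list, here 5, 3 and 4, and were higher in 1, 1 and 0 of 4 pairs. Wfs1, the brightest hippocampus gene, had means of 997 over the non-deprived and 821 over the deprived arrays. It was lower in 4 of 4 pairs, without overlap (limma unadjusted p = 0.0656, or 0.040 with the block). The other 2 hippocampus genes over the filter lay above 0. Within the striatum list Penk gave -0.43 and Tac1 -0.61, each lower in 4 of 4 pairs. Their limma unadjusted p was 0.0752 and 0.043, or 0.0281 and 0.0106 with the block. Drd2, nearer the filter with means of 130 and 160, gave 0.29 and was higher in 3 of 4 pairs (limma unadjusted p = 0.256). Penk and Tac1 therefore share a direction that Drd2 does not. The summed signal of that list was mostly that of Penk, with means of 1444 over the non-deprived and 1044 over the deprived arrays. At an unadjusted p under 0.05 in limma the block moved the counts of the endothelial, mural and meningeal list from 0 lower and 1 higher to 1 and 2, and those of the astrocyte list from 0 and 0 to 1 and 2. It moved the thalamus list from 0 to 1 higher, the hippocampus list from 0 to 1 lower and the striatum list from 1 to 2 lower, and 0 genes of these lists passed after adjustment with or without it. Over all probe sets the block moved the shares from 1.22% lower and 1.45% higher to 3.65% and 3.38%. The counts rose with these shares and are too small to be a result about any list. Choroid plexus genes were all under the filter, and no marker of these lists was listed at 0 throughout.

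Precision limits how these values can be read. In the fit without the replicate block, the 95% interval of a member reached 0.27 to 0.90 on the log2 scale either side of the estimate, with a median of 0.43. In that fit, an estimate under about 1.35-fold has an interval that includes 0 for a typical member, with 4 arrays a group. An interval that includes 0 does not show that the hemispheres were alike.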

How the data were processed

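The authors deposited MAS5 signal intensity on a linear scale, per the submitters' processing notes, without a version or settings in the sources used here. Arrays were rescaled to a common mean without the highest and lowest 2% of values, 66 control probe sets were set aside, and a pseudocount of 15.3, the 10th percentile of signal, was added before taking log2. The platform annotation gave 1 symbol for 10833 probe sets, several for 396 and none for 1193; 10817 of the first were matched by Entrez identifier to RefSeq names of GRCm38.p6. The test was that of limma 3.58.1 under R 4.3.3 (eBayes with intensity trend, two-sided), run on all probe sets over the filter and checked on simulated data.

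Same-numbered samples deviated together from their group means (correlations of 0.16 to 0.42, all 4 above the limit of 0.1, against -0.27 to 0.12 for other numbers), so block results are given where they change a count. Members, lists and tests were chosen with earlier results of these data known, among them a higher Neo1. The rule for full values took all netrin-family genes and the 3 smallest p-values and 2 highest signals of each other family. It also took members with an unadjusted p under 0.05, separated groups or probe sets of opposite sign. Ephb3, Sema3a, Sema3e, Efna5, Robo1, Robo3, Igf2, Cldn5 and the other vessel, meningeal and hippocampus genes given with values were added after their values were seen. Alternatives were a fixed or random block, other filters, pseudocounts of 1 and 64, quantile and cyclic loess scaling, array weights and each array left out; the actin and Gapdh covariates were added after seeing the data. Figures used matplotlib 3.10.9 in Python 3.11.15.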

Additional observations from a re-analysis of the deposited data

Results flagged for a closer look

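Of 60 groups of 4 arrays examined for the named members, family means and array measures, 1 held an array far from the other 3, and chance alone gives about 1 in 20 groups. It was Sema4f in deprived cortex, where the gap of deprived replicate 3 to its nearest neighbour was 0.883 of the group's range. The signals were 1321, 1341, 1175 and 1328, so the range itself was narrow.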

How the results depend on the processing

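No alternative gave a called member or a called probe set. The number of members at an unadjusted p under 0.05 was 2, and 1 with the stricter filter and with the Gapdh ratio as a covariate, 4 with array weights and 1 to 4 when an array was left out (1 without non-deprived replicate 1 or 4 or deprived replicate 2 or 3, 4 without non-deprived replicate 2 or deprived replicate 1). Neo1 was among them in every alternative run. The replicate block gave 3 members (2 without it) and 524 probe sets (199 without it), and 0 calls, and it changed no other call. The number of probe sets was 535 with the random block, 97 with the stricter filter, 491 with no filter, 368 with array weights and 133 to 429 when an array was left out.

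Of 384 differences of named members under alternatives, 22 turned sign, in 12 of 20 members; the cause was not tested. With an array left out the ranges of those that turned were -0.028 to 0.34 for Efna3, -0.42 to 0.28 for Efnb1, -0.0076 to 0.094 for Efnb3, -0.13 to 0.23 for Epha4, -0.063 to 0.21 for Ntn1, -0.031 to 0.21 for Plxna2, -0.080 to 0.35 for Sema4d, -0.018 to 0.065 for Sema4f and -0.16 to 0.12 for Sema7a. With the Gapdh ratio Efna3 gave -0.079, Epha4 -0.13 and Sema6d -0.036, and with the actin ratio Sema4d gave -0.041. Further probe sets gave -0.015 for Epha4, 0.43 for Ephb6, -0.28 for Sema4b and 0.019 for Sema7a. The median of the ephrins was -0.028 to 0.28 with an array left out, the highest without deprived replicate 1, and -0.079 with the Gapdh ratio. That of the semaphorins was -0.0039 to 0.11 with an array left out, the lowest without deprived replicate 3, and -0.0078 with the Gapdh ratio. The median of the Eph receptors was -0.24 with the actin ratio.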
